A study of Mus musculus with 3 samples.

Results

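The chemokine gene Cxcl12 and the genes of its receptors, Cxcr4 and Ackr3, are 3 of the 32285 genes counted in single cells of the embryonic mouse soft palate. They were selected by symbol, and the choice was made on measured values: the levels of these genes in perimysial, muscle, endothelial and blood cells of the same libraries had been seen before. Their pattern over cell types is therefore given as a description. All 3 symbols were found once each.

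Soft palate tissue, the posterior part of the palate, was taken from C57BL/6 mouse embryos at stage E14.5. There were 2 control libraries, labelled as control with no further genotype, and 1 library of Osr2-Cre;Alk5fl/fl embryos, in which Cre driven by Osr2 deletes the type I TGF-β receptor Tgfbr1 (older symbol Alk5) in palatal mesenchyme and not in the myogenic cells. The study asked how perimysial fibroblasts, the connective tissue cells around the forming muscle, signal to that muscle. The number of embryos behind a library is not given in the labels, so the difference between the control libraries may be technical.

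CXCL12 is a secreted chemoattractant. CXCR4 is the G protein-coupled receptor through which cells move along a CXCL12 gradient, and ACKR3 binds the same ligand without G protein signaling, takes it up and so shapes the gradient. The axis is known for guiding myogenic progenitors, blood cell precursors and growing vessels in the embryo.

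The Cxcl12 gene (ENSMUSG00000061353) lies on the plus strand of chr6:117168535-117181367 in GRCm38 and has 4 annotated transcripts. Cxcr4 (ENSMUSG00000045382) lies on the minus strand of chr1:128588199-128592293 with 2 transcripts, and Ackr3 (ENSMUSG00000044337) on the plus strand of chr1:90203980-90216751, also with 2. Since a TGF-β receptor was deleted, the 250 bases before each RefSeq start (GRCm38.p6) are shown 5′ to 3′ and were searched on both strands for the SMAD box CAGAC, and also for the core of the hypoxia response element, spelled ACGTG, since both Cxcl12 and Cxcr4 are known to respond to low oxygen. Matches would stand in capitals.
Cxcl12, chr6:117168285-117168534, plus strand: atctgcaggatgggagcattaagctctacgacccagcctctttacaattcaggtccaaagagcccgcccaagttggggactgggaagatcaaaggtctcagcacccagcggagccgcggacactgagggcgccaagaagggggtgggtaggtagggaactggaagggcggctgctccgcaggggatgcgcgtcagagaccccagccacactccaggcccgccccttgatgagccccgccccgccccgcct
Cxcr4, chr1:128592300-128592549, minus strand: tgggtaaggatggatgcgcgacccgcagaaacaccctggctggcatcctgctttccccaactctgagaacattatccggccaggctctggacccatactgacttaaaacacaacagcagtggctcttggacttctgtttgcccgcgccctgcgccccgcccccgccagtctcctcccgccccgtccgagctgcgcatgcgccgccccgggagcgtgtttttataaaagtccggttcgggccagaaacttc
Ackr3, chr1:90203730-90203979, plus strand: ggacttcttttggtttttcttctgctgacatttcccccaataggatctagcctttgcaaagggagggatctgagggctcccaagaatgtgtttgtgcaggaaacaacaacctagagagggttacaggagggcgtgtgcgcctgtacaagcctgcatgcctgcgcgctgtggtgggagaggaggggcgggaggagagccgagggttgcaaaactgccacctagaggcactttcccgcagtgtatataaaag
Neither motif occurred in the 3 windows. Among 32851 windows of this length, 42.2% held the SMAD box and 16.6% the hypoxia core, so absence of the letters is common and says nothing about binding elsewhere. The windows of Cxcl12, Cxcr4 and Ackr3 held 14, 19 and 7 CpG dinucleotides, against a median of 6 over all windows.

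The files hold counts of unique molecular identifiers (UMIs), 1 for each captured transcript end. Control 1 held 2816 barcodes and 22624711 UMIs, control 2 4067 barcodes and 27814907 UMIs, and the mutant 8690 barcodes and 63505144 UMIs. Between 18 and 49 barcodes were shared by a pair of libraries. Keeping cells with at least 500 genes and at most 10% of UMIs from mitochondrial genes left 2117, 3821 and 8111 cells. Cells were assigned to types by marker genes, here called gates. Levels are UMIs summed over the cells of a gate per 1000000 UMIs of that gate (CPM), with exact 95% Poisson intervals that cover counting error only. With 1 mutant library there is no test between genotypes, so each mutant level is read against how far the controls lie from each other. Series of 3 values follow the order control 1, control 2, mutant. Levels are compared between cells for 1 gene and not between genes.

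Tgfbr1 itself was counted in palatal mesenchyme at 54.8, 61.9 and 47.7 CPM, and in perimysial cells at 70.8, 59.1 and 60.8. These are counts of transcript 3′ ends and the labels do not give the position of the deleted part, so they do not check the genotype. Control 1 stood apart from the other libraries: 49.2% of its macrophage-gated cells also passed the mesenchyme gate (control 2 4.12%, mutant 12.4%), it alone held neutrophil-gated cells, and Cxcl12 and Ackr3 were highest there in most gates. Results are therefore also given without it. Myod1 was at 203 to 270 CPM in myogenic, Pecam1 at 279.7 to 349.6 in endothelial and Epcam at 269.9 to 299.6 in epithelial cells. They were at most 18.4 CPM in the cells outside each of these gates. These genes helped to set the gates, so their contrast is built in and does not check them. Prrx1, a marker of the palatal mesenchyme gate, was at 425, 402 and 523 CPM inside it and 168, 168 and 271 outside. In epithelial cells Prrx1 was at 125, 199 and 296 CPM. In perimysial cells Hic1, 1 of the genes that set the gate, was at 216, 152 and 75.9 CPM (20.8, 11.8 and 11.5 outside), and in mural cells Rgs5 was at 231, 302 and 114. Hic1 thus moved in the order of Cxcl12, and its part in the results on perimysial cells was not tested.

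Most Cxcl12 UMIs lay in palatal mesenchyme, which held 70.7%, 66.0% and 52.7% of them, out of 5164, 2840 and 5420. The same cells held 53.2%, 53.4% and 48.0% of the UMIs of all genes, so the share in the mutant was close to that base. Perimysial cells, gated by Hic1 and Ebf2, had the highest level of the gates with at least 20 cells in every library: 635 CPM (95% interval 602 to 668, 228 cells) in control 1, 299 (269.6 to 329.7, 151 cells) in control 2 and 228 (211 to 245, 283 cells) in the mutant. The levels of the 3 libraries differed by more than counting error, with control 1 far above the other two. Up to 40, 21 and 17 Cxcl12 UMIs were found in 1 perimysial cell.

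The remaining mesenchyme held less Cxcl12, at 237 CPM (228 to 247), 113 (107 to 119) and 80.4 (77.0 to 83.9) in control 1, control 2 and the mutant. Within a library the perimysial level was 2.67-fold higher in control 1, 2.64-fold in control 2 and 2.83-fold in the mutant. The folds lay closer together than the levels. They lay further apart under some alternatives. The mutant had the largest fold in most of these. The folds were 2.60, 3.01 and 3.46 as a mean over cells, and 2.55, 2.81 and 3.21 after thinning. They were 2.78, 2.95 and 3.47 without the deepest 5% of barcodes. With the perimysial gate extended to cells that passed no gate they were 2.75, 2.98 and 3.27. With 1 more marker per gate the mutant had the smallest fold, at 2.46, 2.39 and 2.17. Under all 7 other ways of processing the fold lay between 2.17 and 3.47.

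**Figure D1:**
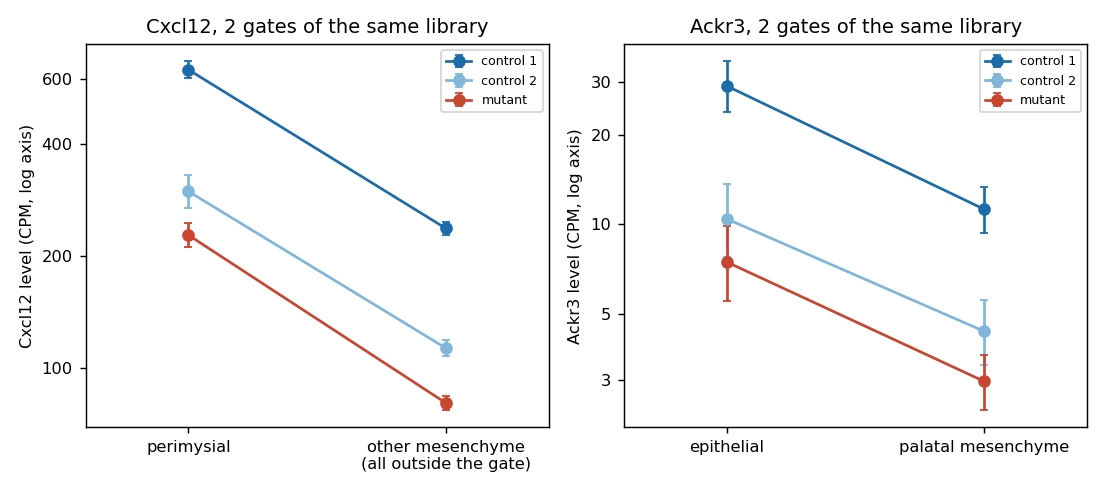
Levels (CPM of summed UMIs, log axis) of Cxcl12 in perimysial-gated cells and in all other palatal mesenchyme (left), and of Ackr3 in epithelial-gated cells and palatal mesenchyme (right). Each line joins the gates of 1 library and bars are 95% Poisson intervals. The lines run nearly parallel, with folds of 2.64 to 2.83 for Cxcl12 and 2.39 to 2.60 for Ackr3, while control 1 lies above control 2 and the mutant.

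Among the mesenchymal subgroups, cells with at least 2 UMIs of Tfap2b and Eya4 (the mesenchymal progenitor gate) had 291, 209 and 135 CPM of Cxcl12 in control 1, control 2 and the mutant. Mesenchyme of no subgroup had 342, 146 and 102 CPM, midline cells 237, 102 and 81.1, and osteogenic cells, gated by Sp7, 79.8, 58.3 and 44.2. Osteogenic cells thus held the least of the mesenchymal subgroups in all 3 libraries. Tendon-like cells, gated by Scx, were at 328, 138 and 101 CPM, but control 1 had 12 of them.

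**Figure D2:**
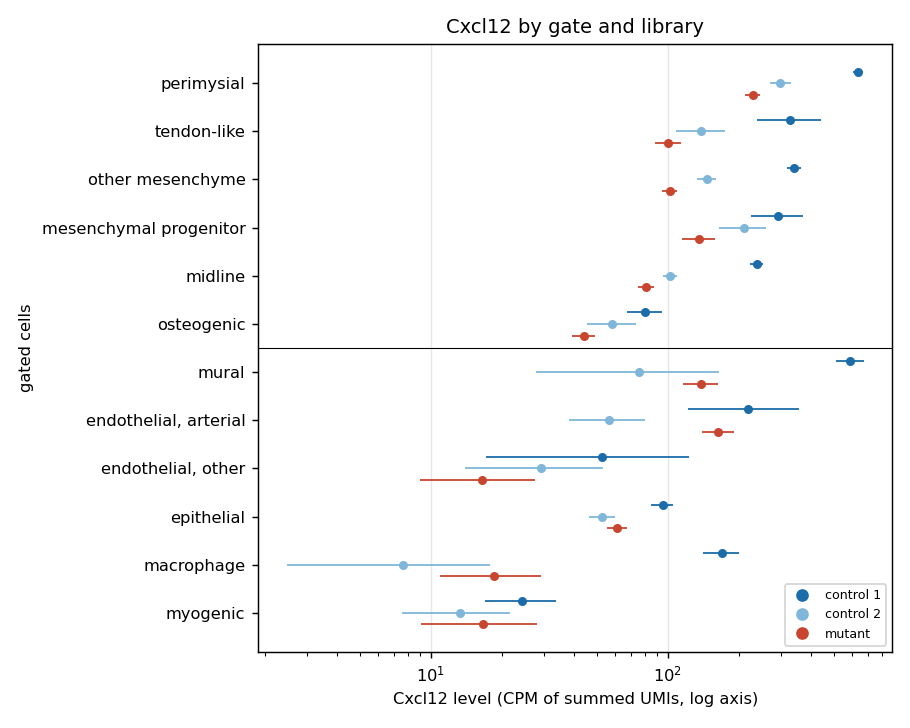
Cxcl12 level (CPM of summed UMIs, log axis) in each gate, with 1 point per library and 95% Poisson intervals. Mesenchymal gates stand above the line and other gates below it. Perimysial cells lie highest, between 228 and 635 CPM, and the mutant lies below both controls in each of the 6 mesenchymal gates.

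Gates with at least 20 cells and a Cxcl12 UMI in every library were ordered by mean log2 CPM over the libraries. Palatal mesenchyme, myogenic and endothelial cells were entered by subgroup and not as wholes, and epithelium was not split. The 10 gates left ran from perimysial through mesenchymal progenitor, other mesenchyme, midline, cartilage, epithelial, osteogenic and macrophage to progenitor and differentiating myogenic cells. Of the neighbours in this order, only midline and cartilage did not overlap in their ranges over the libraries. Perimysial cells lay above the mesenchymal progenitor gate in each of the 3 libraries, although the ranges over the libraries overlapped. Mural cells are outside this order because control 2 held 9 of them. Endothelial cells are outside it because control 1 held 6 arterial, 3 lymphatic and 12 other endothelial cells. As a whole, endothelial cells had 102, 40.8 and 83.9 CPM of Cxcl12.

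Perimysial cells were split by 3 genes that mark perimysial subpopulations in the study. Cxcl12 was higher in cells with a UMI of Aldh1a2, the enzyme that makes retinoic acid, than in those without: 767 against 572 CPM in control 1, 408 against 247 in control 2, and 271 against 199 for the mutant. The Poisson intervals of the groups did not overlap in any library. The cells with an Aldh1a2 UMI were the deeper ones, with a median of 9497, 8655 and 9074 UMIs against 8138, 6459 and 8266, and the part of depth was not tested. With Tbx15, a transcription factor, the order differed between libraries, at 659.9 against 628, 189 against 334 and 155 against 237 CPM. Smoc2, an extracellular matrix protein, gave 673 against 574, 300.1 against 296 and 210 against 254 CPM, so neither gene split Cxcl12 the same way in every library.

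**Figure D3:**
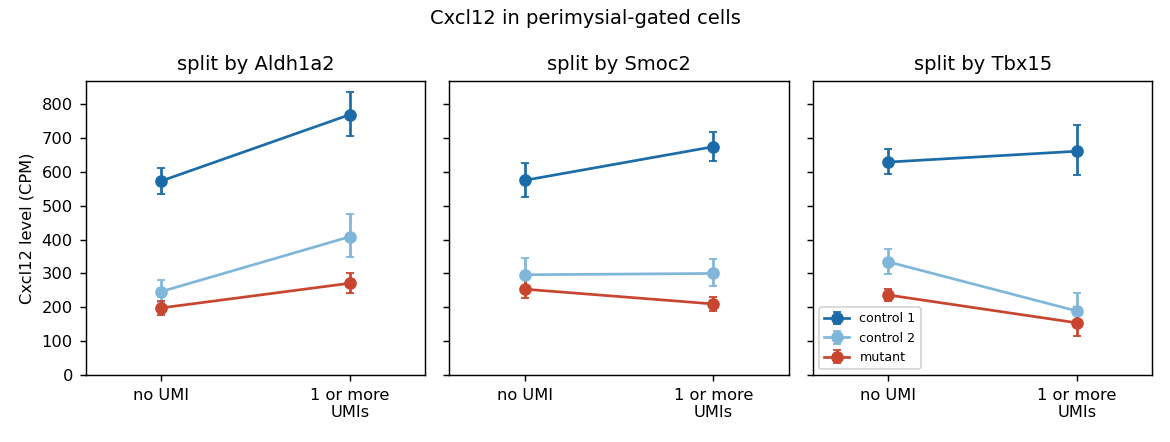
Cxcl12 level (CPM, linear axis from 0) in perimysial-gated cells without and with a UMI of Aldh1a2, Smoc2 or Tbx15. Each line is 1 library and bars are 95% Poisson intervals. The lines rise in all 3 libraries only for Aldh1a2, from 572 to 767, 247 to 408 and 199 to 271 CPM.

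In the mutant, Cxcl12 was below both controls in perimysial cells, but by less than the controls differed from each other. The log2 ratio, mutant log2 CPM less the average of both control values, was −0.93, while the controls were 1.09 apart (the gap). Without control 1 it was −0.39. Of 11554 genes tested in these cells (at least 20 UMIs in all), 43.3% lay outside both controls by more than the gap, in either direction, and Cxcl12 was not among them. A gap between the controls as large as that of Cxcl12 was found for 8.44% of the genes.

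In the other mesenchyme the ratio was −1.03 with a gap of 1.07, and −0.49 without control 1. Here 40.9% of 14694 genes lay outside the controls by more than their gap, and again Cxcl12 did not. The mutant lay below both controls in 6 of 6 mesenchymal subgroups, by more than the gap in osteogenic cells (−0.63, gap 0.45, and −0.40 without control 1) and the mesenchymal progenitor gate (−0.87, gap 0.48, and −0.63 without control 1). Of all genes tested, 35.7% were past the gap in osteogenic cells and 32.9% in the mesenchymal progenitor gate, so a call there is common. In cartilage cells the mutant lay between the controls, at 70.7 against 79.6 and 63.2 CPM. The share of perimysial cells with a Cxcl12 UMI, after each cell was thinned to 2000 UMIs, was 55.7%, 37.4% and 37.8% (87.3%, 68.9% and 74.6% before thinning), so on this measure the mutant equalled control 2 within counting error.

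Vessel cells also held Cxcl12 UMIs. Mural cells, the contractile cells around vessels, had 587 CPM in control 1 (28 cells), 75.5 in control 2 (9 cells) and 138 in the mutant (82 cells). Of these cells 78.6%, 77.8% and 63.4% also passed the mesenchyme gate. Arterial endothelial cells had 217 CPM (6 cells), 56.3 (37 cells) and 163 (108 cells), from 15, 31 and 161 UMIs. Endothelial cells that were neither arterial nor lymphatic had 52.6, 29.0 and 16.4 CPM, from 5, 10 and 14 UMIs. The arterial level was thus 4.12-fold, 1.94-fold and 9.95-fold higher in the same library. The mutant lay between the controls in arterial cells (log2 ratio 0.56, gap 1.95). The arterial gate took any endothelial cell with at least 2 arterial markers, also one that had lymphatic markers. Ccl21a, a chemokine of lymphatic endothelium, was at 0, 1160 and 930 CPM in this gate, against 6210, 5797 and 6015 in the lymphatic gate. The arterial gate may thus hold lymphatic cells, and their part in its levels was not tested.

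Droplets can also catch free RNA of other cells, which was not measured here. Cxcl12 was therefore also counted against Col1a1, a collagen gene that mesenchyme expresses strongly. Palatal mesenchyme had 19.4, 7.51 and 5.77 Cxcl12 UMIs per 100 Col1a1 UMIs in control 1, control 2 and the mutant. Arterial cells had 300 (104 to 1055), 17.0 (11.2 to 25.0) and 51.6 (42.4 to 62.6), above the mesenchymal ratio in all 3 libraries. The value of control 1 rests on 15 Cxcl12 and 5 Col1a1 UMIs, and only 33.3% of its 6 arterial cells had a Cxcl12 UMI. Mural cells had 44.4, 6.38 and 7.06 and the other endothelial cells 6.76, 5.88 and 8.19, so mural cells were clearly above mesenchyme in control 1 alone. In arterial cells the 6 mesenchyme markers summed to 101, 192 and 131 CPM, and 2 of them had no UMI in control 1.

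The ratio was 19.4, 6.34 and 6.65 in epithelial, 16.1, 8.70 and 8.86 in myogenic and 25.8, 5.95 and 5.92 in macrophage-gated cells, whose Cxcl12 levels were 94.9, 52.7 and 60.9 CPM, 24.3, 13.3 and 16.7 CPM, and 168, 7.60 and 18.5 CPM. The high macrophage value of control 1 went with 518 CPM of summed mesenchyme markers, against 129 in control 2 and 229 in the mutant. In macrophage-gated cells of control 1 the interval of the ratio (21.2 to 31.2) lay above that of mesenchyme (18.7 to 20.1). Whether the UMIs in these 3 gates were made by the cells or came from free RNA was not tested.

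**Figure D4:**
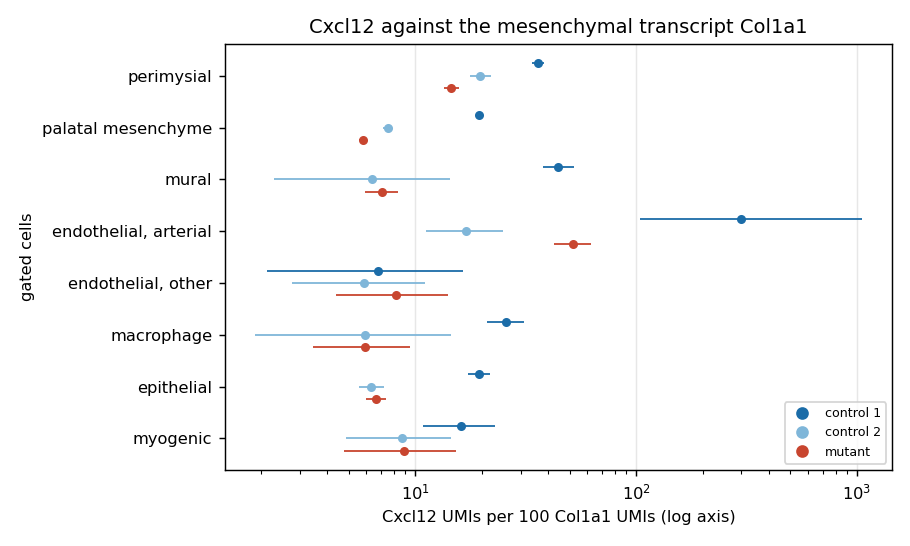
Cxcl12 UMIs per 100 Col1a1 UMIs in the same cells (log axis), with 1 point per library and exact 95% intervals. Arterial endothelial cells, at 17.0 to 300, lie above palatal mesenchyme of the same library, at 5.77 to 19.4. Myogenic and epithelial cells lie near the mesenchymal ratio.

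Ackr3, the scavenging receptor, was highest in epithelium among the gates with at least 20 cells in every library, a tissue which the rule for choosing the genes did not name. Epithelial cells had 29.2 CPM (23.8 to 35.3, 105 UMIs in 232 cells) in control 1, 10.4 (7.76 to 13.7, 51 UMIs in 361 cells) in control 2 and 7.46 (5.52 to 9.86, 49 UMIs in 528 cells) in the mutant. Palatal mesenchyme had 11.2 CPM (9.38 to 13.3), 4.36 (3.35 to 5.58) and 2.96 (2.37 to 3.65). The epithelial level was 2.60-fold, 2.39-fold and 2.52-fold higher. Under 7 other ways of processing it lay between 1.06 and 3.38 in control 1, 2.11 and 2.74 in control 2, and 1.91 and 2.52 in the mutant, and the value of 1.06 came from cells thinned to 2000 UMIs, which left 6 epithelial UMIs. Per 100 Col1a1 UMIs, epithelium had 5.96, 1.25 and 0.814 Ackr3 UMIs and mesenchyme 0.691, 0.252 and 0.178, and the exact intervals of the tissues did not overlap in any library.

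Of all Ackr3 UMIs, 36.8%, 36.7% and 22.6% lay in epithelial cells, and 45.6%, 45.3% and 40.6% in palatal mesenchyme. Epithelial cells with a UMI of the keratin Krt6a had 25.3, 9.51 and 7.13 CPM and those without had 30.02, 10.8 and 7.56, a difference within counting error. A share of 53.4% to 61.2% of the epithelial cells also passed the mesenchyme gate. Without those cells Ackr3 was at 38.0, 10.2 and 6.14 CPM in epithelium, on 48, 12 and 9 UMIs. The fold over palatal mesenchyme was then 3.38, 2.34 and 2.08.

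Within the mesenchyme, no subgroup led in Ackr3 in every library. Midline cells had 14.0, 3.15 and 3.99 CPM, osteogenic cells 9.43, 6.66 and 2.78, perimysial cells 7.48, 5.37 and 2.52, and mesenchyme of no subgroup 10.7, 5.49 and 2.57. Their order changed from library to library. An order of gates with at least 20 cells and an Ackr3 UMI in each library held 8, with endothelial cells as a whole again left out. Epithelium led and differentiating myogenic cells, with 5 UMIs in all, came last. Cartilage cells came second, at 17.7, 9.98 and 3.05 CPM on 16 UMIs in all, and in control 2 were close to epithelium at 10.4 CPM. No neighbours in this order were apart in their ranges.

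Ackr3 was lower in the mutant than in both controls in most of these gates, and control 1 again lay far above control 2. In palatal mesenchyme the log2 ratio was −1.24 with a gap of 1.36 (−0.56 without control 1), where 41.2% of 14946 genes passed their gap. In epithelium it was −1.22 with a gap of 1.48 (−0.48 without control 1), where 40.2% of 13263 genes did. Neither ratio was past the gap. In perimysial cells the ratio of −1.33 was past its gap of 0.48, on 17, 7 and 8 UMIs, as were 43.3% of all genes there. It was also past the gap in osteogenic cells (−1.51, gap 0.50), with 35.7% of genes, and in mesenchyme of no subgroup (−1.58, gap 0.96), with 40.4%, while in midline cells the mutant lay between the controls. A gap as large as that of Ackr3 in epithelium was found for 4.70% of the genes there.

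Endothelium and blood held little Ackr3. Endothelial cells had 3, 1 and 4 UMIs in 21, 97 and 261 cells (13.3, 0.995 and 1.87 CPM), and the 3 UMIs of control 1 came from 2 arterial cells. Macrophage-gated cells had 1 UMI in control 1 and none in the other libraries. The myogenic progenitors had 0 UMIs in 32, 37 and 42 cells, where a limit of 3 counts allows a share of up to 9.38%, 8.11% and 7.14% of cells with a UMI, and the exact 95% interval for a share of cells reaches 10.9%, 9.49% and 8.41%. Ackr3 in muscle was thus not detectable at this depth beyond 5 UMIs in differentiating cells.

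Cxcr4, the signaling receptor, was sparse everywhere: 34 UMIs in 24 cells of control 1, 33 in 30 cells of control 2 and 67 in 62 cells of the mutant. Endothelial cells had 13.3 CPM (2.74 to 38.9), 4.98 (1.62 to 11.6) and 8.90 (5.36 to 13.9), from 3, 5 and 19 UMIs. Most of these came from cells of the arterial gate, which may hold lymphatic cells, at 43.3, 7.26 and 16.2 CPM on 3, 4 and 16 UMIs. The 3 arterial UMIs of control 1 lay in 1 cell.

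**Figure D5:**
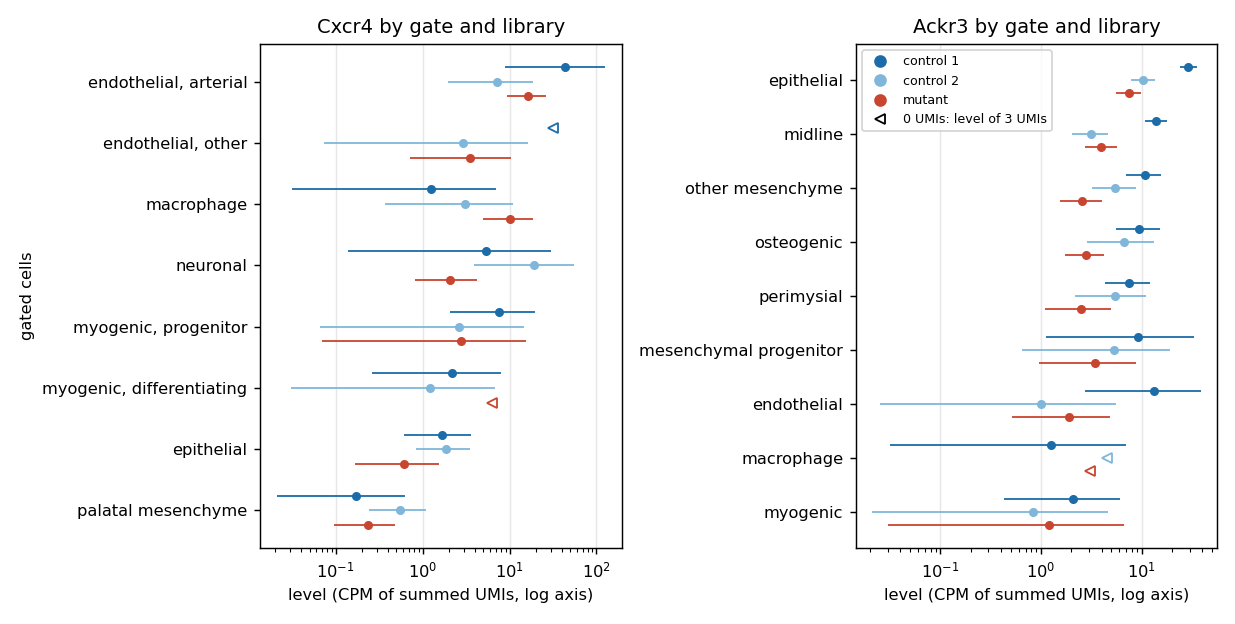
Levels (CPM of summed UMIs, log axis) of Cxcr4 (left) and Ackr3 (right) by gate, with 1 point per library and 95% Poisson intervals. Open triangles mark gates with 0 UMIs, drawn at the level of 3 UMIs. Ackr3 is at 7.46 to 29.2 CPM in epithelium, the highest of the gates drawn in its panel, and Cxcr4 in arterial cells is at 7.26 to 43.3 CPM, with wide intervals.

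A Cxcr4 UMI was found in 4.76%, 4.12% and 5.75% of endothelial cells but in 0.155%, 0.346% and 0.163% of palatal mesenchymal cells, taken for comparison, at median depths of 9128, 7163 and 6049 against 7932, 5268 and 5462 UMIs. In the same libraries 1.69%, 2.06% and 6.54% of macrophage-gated and 2.16%, 2.22% and 0.758% of epithelial cells had one. So did 5.56%, 13.3% and 1.91% of 18, 15 and 367 neuronal cells, above the endothelial share in both controls. For mural cells it was 7.14%, 0% and 3.66% of 28, 9 and 82 cells. The endothelial share was above the mesenchymal one in each library, on 1, 4 and 15 endothelial cells with a UMI, and the endothelial cells had the higher median depth. After thinning to 2000 UMIs it was 0%, 3.19% and 0.826%, against 0%, 0.0907% and 0% in mesenchyme, so control 1 then had no cell with a UMI in either gate. Neutrophil-gated cells, present in control 1 alone, had 4 Cxcr4 UMIs in 56 cells (34.7 CPM, 9.47 to 88.9), and erythroid cells none in any library.

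The myogenic cells held 9 Cxcr4 UMIs in all. There were 6 in 88 cells of control 1, 2 in 114 of control 2 and 1 in 100 of the mutant (4.17, 1.66 and 1.19 CPM). Progenitors had 4, 1 and 1 of these UMIs and differentiating cells 2, 1 and 0. The share of myogenic cells with a UMI was 4.55%, 1.75% and 1%. After thinning to 2000 UMIs it was 0%, 0% and 1%, so the order of the libraries, whose myogenic cells had a median of 16432, 9389 and 7880.5 UMIs, was not kept.

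The mutant to control ratios of Cxcr4 rest on these counts. In endothelial cells the log2 ratio was 0.13 with a gap of 1.42, where 36.5% of 9567 genes were past their gap, and the mutant over the pooled controls was 1.37 (exact interval 0.572 to 3.62, counting error only). In myogenic cells the log2 ratio was −1.14 with a gap of 1.33, and the ratio of 1 to 8 UMIs, scaled by the summed UMIs of the gate, was 0.393 (0.00887 to 2.93). In macrophage-gated cells 10 UMIs in the mutant stood against 1 and 2 in the controls, at 10.3, 1.26 and 3.04 CPM. There the log2 ratio was 2.39 with a gap of 1.27, where 35.4% of 8516 genes were past their gap, and the mutant over the pooled controls was 4.97 (1.28 to 28.1). Without control 1 the log2 ratio was 1.75, and with 13 UMIs in all the gene was under the 20 UMIs asked of a gene tested.

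Cells with both receptors were few, 5 in control 1, none in control 2 and 2 among mutant cells. Cells with Cxcl12 and Ackr3 numbered 125, 61 and 98, out of 217, 131 and 202 cells with Ackr3. Of all cells kept, 56.0%, 32.5% and 30.3% had a Cxcl12 UMI, and the part of depth in these counts was not tested. Cells that passed more than 1 gate other than mesenchyme were left out of every gate, and held 26.5%, 9.09% and 14.9% of the Cxcr4 UMIs.

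The other chemokine ligands were low in perimysial cells, and 10 of 39 reached 20 UMIs there. None of the 10 was higher and 6 were lower in the mutant by more than the gap, with a median log2 ratio of −0.90, where among all genes 2150 were higher and 2848 lower with a median of −0.01. With TMM factors 1 was higher and 6 were lower, and the split over all genes was 2744 to 2402. Ccl27a, whose copies share reads and whose count is uncertain, was at 37.8, 49.1 and 25.8 CPM. Cxcl14, a chemokine of epithelia and fibroblasts, had 21.1, 9.98 and 3.78 CPM (log2 ratio −1.94, gap 1.08). Ccl25 had 11.9, 19.2 and 13.5 CPM, with the mutant between the controls. Ccl11, an attractant of eosinophils, had 56.3, 5.37 and 2.20 CPM, and its control libraries alone differed by 3.39 on the log2 scale. Beside Ccl27a and Cxcl14, the 6 lower ligands were Ccl21a, Ccl7, Cxcl1 and Cxcl16. Ccl21a was at 8.80, 6.14 and 2.52 CPM, against 6210, 5797 and 6015 in lymphatic cells. Ccl7 was at 2.64, 9.98 and 1.26 CPM, against 35.2, 465 and 191 in macrophage-gated cells, where Cxcl1 and Cxcl16 were higher too. The part of transcripts from those cells was not tested.

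In epithelium 8 of 10 other ligands tested were lower and none higher past the gap, also with TMM factors, beside 1394 higher and 3941 lower of all genes (2717 and 2674 with TMM factors). Among the 8 were Pf4, a chemokine of platelets and macrophages, at 4.72, 1.84 and 0.152 CPM, and Ccl21a, a chemokine of lymphatic endothelium with several copies, at 43.3, 38.8 and 23.4 CPM, and the macrophage receptor gene Cx3cr1 was at 5.27, 6.94 and 1.83 CPM in the same cells. Pf4 and Cx3cr1 were named after their values were seen. Transcripts of these other cell types moved with the list in epithelium, and their part was not tested. Cxcl14 was at 81.1, 15.1 and 10.5 CPM there, with its controls further apart than the mutant from their mean. Ccl25 was at 9.16, 13.9 and 14.2 CPM in epithelium, and thus not lower in the mutant. Of the other chemokine receptors none reached 20 UMIs in perimysial cells. Over palatal mesenchyme 5 were tested, and 1 was higher and 3 were lower past the gap (1 and 2 with TMM factors). Ackr1, a further scavenging receptor, was the higher one, at 1.38, 1.73 and 2.66 CPM, and Cx3cr1 (log2 ratio −2.66), Ccrl2 (−2.29) and Cxcr2 (−1.91) were lower. The lower ones were at trace levels, with Cx3cr1 at 2.76, 2.35 and 0.404 CPM and Ccrl2 at 0.777, 0.554 and 0.135. In macrophage-gated cells Cx3cr1 was at 388, 767 and 763 CPM and Ccrl2 at 101, 76.0 and 179. Ackr1 was at 0, 56.8 and 39.2 CPM in neuronal cells. The part of transcripts from other cells in these mesenchymal levels was not tested.

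Of 31 genes that process CXCL12, compete for its receptors, pass on their signal or act upstream of it, 25 were tested in perimysial cells, and 5 were higher and 5 lower in the mutant past the gap (6 and 5 with TMM factors). These 10 of 25 stand beside the 43.3% of all genes past the gap in these cells, and nothing is read from them. Hmgb1, a nuclear protein that forms a complex with CXCL12 outside cells, was at 1847, 1812 and 1153 CPM (log2 ratio −0.67, gap 0.03). Mif, another ligand of CXCR4, was at 608, 666 and 580 CPM. Ebf1, a transcription factor of CXCL12-rich bone marrow stroma, was at 751, 338 and 327 CPM, with control 1 apart as for Cxcl12. Gnai2, the inhibitory G protein subunit next to CXCR4, was at 241, 270.1 and 308 CPM. The next 2 genes were named after their values were seen. Mmp9, a protease that cleaves CXCL12, had 0, 1 and 24 UMIs in perimysial cells, and 7, 10 and 167 in the other mesenchyme (0.752, 0.761 and 6.29 CPM, log2 ratio 3.06). The 20 UMIs asked of a gene tested are summed over the libraries. In perimysial cells Mmp9 reached them through the mutant alone, so its part in the counts of higher genes is not read as a call. Foxc1, a transcription factor, was at 17.6, 19.2 and 49.4 CPM in perimysial cells (log2 ratio 1.43, gap 0.12).

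The genes whose pattern over 11 gates was most like that of Cxcl12, by the lowest of the Pearson correlations in the 3 libraries on log2(CPM + 10) among 3945 genes, were Smarca2 (0.91), Osr1 (0.90), Eln (0.89), Fbxl7 (0.88) and Fstl1 (0.88). In perimysial cells Osr1 was at 165, 115 and 97.0 CPM and Eln at 380, 275 and 216, in the order of Cxcl12. Smarca2 (192, 226 and 231 CPM), Fbxl7 (153, 159 and 186) and Fstl1 (673, 799 and 692) did not follow that order. For Ackr3 the genes of most like pattern were Nrtn (0.81), Gm49708 (0.80), Sox4 (0.79), Ddit4 (0.79) and Ptprf (0.79). Ackr3 was under the added 10 CPM in most gates of control 2. In the mutant its highest level among the gates ordered above was 7.46 CPM, in epithelium. The Ackr3 list thus has little basis. The points of 1 correlation share a library, and for Cxcr4, also with a level under the added 10 CPM in most gates, no list is given.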

How the data were processed

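The authors dissociated soft palates at embryonic day 14.5, made 10x Genomics 3′ v2 libraries and deposited raw UMI counts per gene and barcode, 1 table per library and without normalization. The file headers name Cell Ranger 4.0.0 and the submitters' processing notes 3.1.0 and mm10; the annotation is not given in the sources used here. By identifier 32158 of 32285 genes matched GENCODE M21 (GRCm38). The authors' pooling and integration were not used.

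Cells with at least 500 genes and at most 10% mitochondrial UMIs were gated by at least 3 markers of a type, palatal mesenchyme by at least 2 of 6 markers and no other gate, perimysial cells by at least 2 UMIs of Hic1 and Ebf2, and erythroid cells by at least 20% of UMIs from hemoglobin and other erythroid genes. Of the cells kept, 156, 696 and 1558 passed no gate. No doublet caller was run. Cells in more than 1 gate other than mesenchyme were left out as possible doublets (70, 44 and 264).

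UMIs were summed per gate and library. In tables of all genes, a library without a UMI of a gene was given 3 before taking log2. A gene is past the gap when the mutant lies outside both controls and its log2 ratio exceeds the gap. Intervals for counts are Poisson, for shares and ratios Clopper-Pearson, at 95%. UMI totals per gate set the precision. The members and lists were chosen with earlier results of these data known. Genes were named from the lists mainly by highest CPM and some, as stated, after their values were seen. The 5 genes of most like pattern are also named, markers left out. Python 3.11.15, numpy 2.4.6, scipy 1.17.1, pandas 2.3.3 and edgeR 4.0.16 in R 4.3.3 (TMM factors as an alternative) were used, and the ratio and pattern steps were tested on simulated data. The alternatives are given in the closing section.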

Additional observations from a re-analysis of the deposited data

Results flagged for a closer look

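Cxcr4 differed in opposite directions in 2 gates. In macrophage-gated cells it was higher in the mutant than in each control, with a log2 ratio of 2.39, and in epithelial cells it was lower than in each control, with a log2 ratio of −1.52. The difference between the gates was not tested. With 13 UMIs in all in macrophage-gated and 19 in epithelial cells, Cxcr4 was under the 20 UMIs asked of a gene tested. Of the genes tested, 35.4% were past the gap in macrophage-gated and 40.2% in epithelial cells, so such a difference is common. The counts were 1, 2 and 10 UMIs in macrophage-gated and 6, 9 and 4 UMIs in epithelial cells of control 1, control 2 and the mutant. The mutant over the pooled controls was 4.97 (1.28 to 28.1) in the former and 0.345 (0.0833 to 1.08) in the latter, by exact intervals for counting error only. The epithelial interval included a ratio of 1. Both intervals pool the controls and so leave out the gap between them, and they are no test between genotypes.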

How the results depend on the processing

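Of 51 values from 9 results under alternatives that keep both controls, 49 moved by less than 1 SD of the control log2 values. This SD grows with the gap, so where the controls lie far apart a large move still counts as small. Ackr3 in endothelial cells, with a gap of 3.74, went from −0.96 to 0.05 as a mean over cells and was within it. Cxcl12 in arterial cells went from 0.56 to 1.38 with 1 more marker per gate and was also within it. The log2 ratios of Cxcl12 in perimysial cells and other mesenchyme, and of Ackr3 in palatal mesenchyme and epithelium, stayed below 0 under each of these alternatives. In perimysial cells, however, Cxcl12 of the mutant came close to control 2 as a mean over cells (336 against 350 CPM, control 1 693). It did so after thinning too (302 against 327 CPM, control 1 667), and lay further below control 2 under the other alternatives. The values that moved by more than the SD were both of Cxcr4. In myogenic cells its log2 ratio was 0.45 once cells that also pass the mesenchyme gate were left out, which kept 1 UMI in each library. In endothelial cells it was 1.36 as a mean over cells, and the cause was not tested. A further 10 alternatives gave no value because a library held 0 UMIs. With 1 control left out at a time, which moves a ratio by an amount that the gap alone sets and so says nothing of stability, the log2 ratio ran from −1.48 to −0.39 for Cxcl12 in perimysial cells, −1.56 to −0.49 in other mesenchyme and −0.41 to 1.53 in arterial cells. It ran from −1.92 to −0.56 for Ackr3 in palatal mesenchyme, −1.97 to −0.48 in epithelium and −2.83 to 0.91 in endothelium, and for Cxcr4 from −1.81 to −0.48 in myogenic, −0.58 to 0.84 in endothelial and 1.75 to 3.03 in macrophage-gated cells. The perimysial gate extended to cells that passed no gate, an alternative chosen after seeing the data like the epithelial and arterial results, gave −0.84 for Cxcl12. TMM factors moved the median ratio of all genes from −0.11 to 0.05 in the other mesenchyme, and the Cxcl12 ratio there from −1.03 to −0.87. No paired analysis was possible, since 1 mutant library stood against 2 controls and the labels link neither control to it. With 1 mutant library the deletion and any other difference between libraries cannot be told apart, and the depth limits Cxcr4 throughout.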

Other observations

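Macrophage-gated cells held high levels of other chemokines. Cxcl2, an attractant of neutrophils, was at 399.7, 541 and 1488 CPM in the controls and the mutant (log2 ratio 1.68, gap 0.44). Ccl3 was at 270.2, 302 and 773 CPM and Ccl4 at 474, 467 and 1355 CPM. Other abundant ligands did not move alike. Pf4 was at 532, 885 and 1079 CPM, and Ccl2 at 211, 802 and 486 CPM, with the mutant between the controls for Ccl2. Of 15 ligands tested in these cells 6 were higher in the mutant past the gap and none was lower, also with TMM factors, while over all genes (35.4% past the gap) 1149 were higher and 1866 lower (1670 and 1351 with TMM factors). The chemokine receptor Cx3cr1 was at 388, 767 and 763 CPM. The cells numbered 59, 97 and 153.

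Cells that passed no gate held Cxcl12 at 568, 189 and 168 CPM, above palatal mesenchyme at 315, 129.8 and 96.1 CPM. They were shallower, with a median of 5374, 3234 and 2886 UMIs, and held 9.18%, 16.5% and 15.8% of the Cxcl12 UMIs.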
